A study of Mus musculus with 14 samples.

Results

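The Rassf genes encode the Ras association domain family, and their DNA methylation was measured by reduced-representation bisulfite sequencing (RRBS) in the mammary adipose tissue of 14 female C57BL/6N mice. All sites that the table of levels assigns by gene symbol to Rassf1 through Rassf10 were taken, which gave 19 of the 75761 sites. Rassf5 had 8 of these sites, Rassf10 had 4, Rassf7 had 3, and Rassf1, Rassf2, Rassf3 and Rassf9 had 1 each. Rassf4, Rassf6 and Rassf8 had 0 sites, and are not analysed here. The table assigns 1 site within the span of Rassf4 and 2 within that of Rassf3 to other genes, and these were not counted. The tissue came from the fat pad contralateral to an E0771 mammary tumor, which every mouse of every group carried. Mice entered the study as young adults. The 3 CON-LFD mice ate a low-fat diet throughout. The other mice were made obese by a 60% high-fat diet. The 4 DIO-HFD mice stayed on it. The 3 DIO-LFD mice changed to the low-fat diet, and the 4 DIO-VSG mice changed to it after vertical sleeve gastrectomy, which removes most of the stomach. All other mice had a sham procedure. Tumor cells were given 22 weeks after randomization, and tissue was taken once the tumors had grown to the end of the study.

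Rassf proteins carry a Ras association domain, which binds Ras-type GTPases. In Rassf1 to Rassf6 that domain lies near the C-terminus and is followed by a SARAH domain, through which several members bind the Mst kinases of the Hippo pathway. Rassf7 to Rassf10 carry the domain near the N-terminus and lack the SARAH domain. The family is best known from tumors, in which promoters such as that of RASSF1A become methylated and the gene falls silent.

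RRBS reads short fragments made by the enzyme MspI, which cuts DNA at CCGG, and the methylation level is the share of reads at a cytosine that were methylated. The enzyme leaves a CpG at each end of a fragment, called a cut CpG here, and other CpGs lie inside the fragment. Of the 19 Rassf sites, 11 (57.9%) were cut CpGs, against 32.7% of all sites in the table. The table places 14 of the 19 sites (73.7%) in promoters, within about 1000 bp of a transcript start, against 25.8% of all sites. Of these, 9 also lay in a CpG island. Sites are named below by their distance in bp to the start of the transcript that the table assigns, and coordinates are those of mm10.

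Fragments that hold Rassf sites are printed from the RefSeq GRCm38.p6 genome, which is mm10, in plus-strand orientation from one CCGG to the next. Capitals mark the CpGs with a level in the table. The Rassf10 fragment (chr7:112954931-112955038) lies within the coding sequence of the first exon and holds all 4 Rassf10 sites among its 10 CpGs. The distal Rassf5 fragment (chr1:131244641-131244746) spans the border of an intron and coding sequence and has 4 measured CpGs of 11. The proximal Rassf5 fragment (chr1:131245023-131245121) is coding, and the CpGs of both its ends were measured. The Rassf7 fragment printed (chr7:141215669-141215716) lies upstream of the gene, with both ends measured, at -190 and -146. The neighbouring Rassf7 fragment of 257 bp, from -447 to -190, is not printed.

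Rassf10: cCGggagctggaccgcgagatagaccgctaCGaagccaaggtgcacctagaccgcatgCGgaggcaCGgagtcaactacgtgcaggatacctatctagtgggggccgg
Rassf5 distal: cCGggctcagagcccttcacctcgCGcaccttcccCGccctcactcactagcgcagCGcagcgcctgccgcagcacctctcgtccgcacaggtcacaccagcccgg
Rassf5 proximal: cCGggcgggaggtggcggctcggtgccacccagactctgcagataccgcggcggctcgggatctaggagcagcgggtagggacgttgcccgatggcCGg
Rassf7: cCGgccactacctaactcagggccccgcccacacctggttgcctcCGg

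The next set holds the single sites of Rassf1, Rassf2 and Rassf3, which lie outside CpG islands. The Rassf1 fragment (chr9:107555264-107555341) is intronic. The site in the Rassf2 fragment (chr2:132035420-132035531) lies 5212 bp outside its gene, and that in the Rassf3 fragment (chr10:121498354-121498516) lies 22008 bp outside its gene.

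Rassf1: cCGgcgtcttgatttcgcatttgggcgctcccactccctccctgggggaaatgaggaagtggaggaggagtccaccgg
Rassf2: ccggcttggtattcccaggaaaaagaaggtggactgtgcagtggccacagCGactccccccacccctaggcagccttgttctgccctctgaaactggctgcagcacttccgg
Rassf3: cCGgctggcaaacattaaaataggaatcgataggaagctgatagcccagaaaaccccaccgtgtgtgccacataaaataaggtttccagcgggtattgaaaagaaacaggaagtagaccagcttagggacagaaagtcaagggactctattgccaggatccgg

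One obese mouse stood apart before any comparison. The mean level over all tested sites, leaving out the Rassf sites, was 66.2% in DIO-HFD replicate 1 and 57.2%, 57.6% and 57.6% in the other DIO-HFD mice, while the remaining 10 mice lay between 60.6% and 65.2%. The counts of Rassf sites called, and the differences at the sites named, are therefore given with and without that mouse in the comparisons with DIO-HFD mice. Read counts are not part of the table, so depth is unknown and levels carry no counting interval. In whole tissue, a change in the mix of cells and a change of methylation within a cell cannot be told apart.

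The Rassf sites covered nearly the whole range of methylation. The mean level over 14 mice ran from 3.7% at Rassf10 +1037 to 90.9% at the Rassf9 site. The mean over all 19 sites was 41.2% ± 1.19 (SD, n = 3) in CON-LFD, 40.6% ± 2.01 (SD, n = 4) in DIO-HFD, 40.7% ± 0.543 (SD, n = 3) in DIO-LFD and 40.2% ± 1.74 (SD, n = 4) in DIO-VSG mice. The ranges of these 4 groups overlapped.

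**Figure D1:**
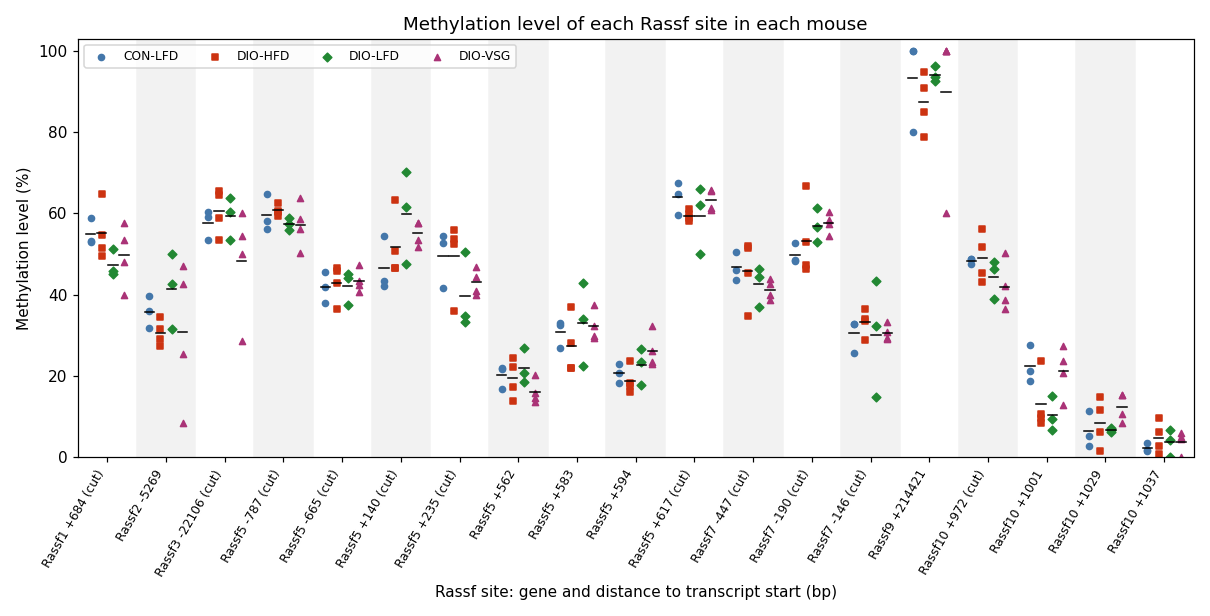
Methylation level in percent (y axis) at each of the 19 Rassf sites (x axis, by gene and distance to the transcript start in bp) in each of the 14 mice. Symbols mark the 4 groups, black bars are group means, and "(cut)" marks a cut CpG. In the 4 comparisons made, groups are separate only at Rassf5 -787 (DIO-LFD and DIO-HFD) and Rassf10 +1029 (DIO-VSG and DIO-LFD). Overlap of CON-LFD with DIO-LFD or DIO-VSG mice was not counted. Of the 11 cut CpGs, 9 have a mean between 40% and 60%.

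Among the members with a SARAH domain, Rassf1, the founding tumor suppressor of the family, had 1 site at +684 (chr9:107555265), a cut CpG in an intron. It lies 3710 bp downstream of the start of the longer Rassf1 transcript, and the table has 0 sites within 1000 bp of that start. Levels at +684 were 59.0%, 53.1% and 53.1% in CON-LFD, 54.7%, 51.4%, 49.5% and 64.8% in DIO-HFD, 51.3%, 45.2% and 45.8% in DIO-LFD, and 57.5%, 53.4%, 40.0% and 48.1% in DIO-VSG mice. Every other group overlapped with the DIO-HFD mice, and the DIO-VSG mice overlapped with the DIO-LFD mice. The CON-LFD levels lay above those of DIO-LFD mice, but this pair of groups was not compared over all sites.

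Rassf2, which binds K-Ras, had 1 site upstream of its transcript start at -5269 (chr2:132035470), inside a fragment and not in an island. Levels were 39.7%, 31.8% and 36% in CON-LFD, 27.5%, 34.5%, 31.6% and 29.1% in DIO-HFD, 31.6%, 42.6% and 50.0% in DIO-LFD, and 42.6%, 8.33%, 25.3% and 47.1% in DIO-VSG mice. The spread was widest after surgery (SD 17.7, n = 4) and narrowest in obese mice (SD 3.06, n = 4). Both groups that lost weight overlapped with the obese mice.

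Rassf3, another member of the SARAH group, had 1 site upstream at -22106 (chr10:121498355), an intergenic cut CpG. Levels were 59.2%, 60.3% and 53.5% in CON-LFD, 65.5%, 64.7%, 53.6% and 58.9% in DIO-HFD, 60.4%, 63.9% and 53.6% in DIO-LFD, and 50.0%, 28.6%, 60.2% and 54.3% in DIO-VSG mice. The lowest level, 28.6%, was that of DIO-VSG replicate 2, the same mouse that was lowest at the Rassf2 site, and the groups overlapped.

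Rassf5, also known as Nore1 and Rapl, links Ras and Rap1 to Mst1 and to leukocyte adhesion. Its 8 sites lay from -787 to +617 around the start on chromosome 1. The 3 sites inside the distal fragment, at +562, +583 and +594, had means of 19.2%, 30.7% and 22.1%, and the 5 cut CpGs had means from 42.7% to 61.5%. At +583, the one inner site that varied enough to be tested, levels were 33.0%, 26.8% and 32.6% in CON-LFD, 37.1%, 22.0%, 28.1% and 21.9% in DIO-HFD, 42.9%, 33.9% and 22.3% in DIO-LFD, and 29.9%, 29.3%, 32.3% and 37.6% in DIO-VSG mice. The groups overlapped there. Over the 5 sites in the promoter CpG island, the gene mean was 33.6% ± 1.94 (SD, n = 3) in CON-LFD, 33.4% ± 2.63 (SD, n = 4) in DIO-HFD, 35.4% ± 3.39 (SD, n = 3) in DIO-LFD and 34.5% ± 2.13 (SD, n = 4) in DIO-VSG mice. The 3 differences from DIO-HFD mice, of 0.208, 2.03 and 1.16 percentage points, were smaller than the pooled SD of 2.38, 2.96 and 2.39.

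Among the members without a SARAH domain, Rassf7, which acts in mitosis, had 3 cut CpGs upstream of its start on chromosome 7, at -447, -190 and -146, with means of 44.0%, 54.6% and 31.2%. The last 2 of these lie in the promoter island, and their mean was 40.2% ± 0.838 (SD, n = 3) in CON-LFD, 43.3% ± 6.01 (SD, n = 4) in DIO-HFD, 43.6% ± 6.82 (SD, n = 3) in DIO-LFD and 44.1% ± 1.66 (SD, n = 4) in DIO-VSG mice. The differences from DIO-HFD mice, of -3.11, 0.306 and 0.875 points, were again smaller than the pooled SD. The lowest and the highest level at -146, 14.9% and 43.3%, were both those of DIO-LFD mice.

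Rassf9, an endosomal protein that binds the peptide-amidating enzyme Pam, had 1 site 176905 bp past the end of the gene (chr10:102726641), and it was the most methylated of the family. Levels were 100%, 100% and 80% in CON-LFD, 85.0%, 78.9%, 90.9% and 94.9% in DIO-HFD, 92.6%, 96.2% and 93.5% in DIO-LFD, and 100%, 100%, 100% and 60.0% in DIO-VSG mice. DIO-VSG replicate 4 was the lowest of all mice, and the other 3 mice of its group were at 100%.

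Rassf10, whose promoter is silenced by methylation in several tumor types, had 4 sites in the fragment shown above, at +972, +1001, +1029 and +1037 on chromosome 7. Their means were 45.9% at the cut CpG and 16.9%, 8.81% and 3.7% at the inner CpGs, in that order. At the cut CpG levels were 47.6%, 48.7% and 48.7% in CON-LFD, 51.8%, 43.1%, 56.2% and 45.4% in DIO-HFD, 39.0%, 48.1% and 46.3% in DIO-LFD, and 42.0%, 36.4%, 38.8% and 50.3% in DIO-VSG mice, with the lowest level after surgery and the highest in an obese mouse. The Rassf10 mean over the 2 promoter island sites, +972 and +1001, was 35.4% ± 1.94 (SD, n = 3) in CON-LFD, 31.1% ± 5.33 (SD, n = 4) in DIO-HFD, 27.4% ± 1.13 (SD, n = 3) in DIO-LFD and 31.5% ± 5.52 (SD, n = 4) in DIO-VSG mice. The CON-LFD mean was 4.33 points above that of DIO-HFD mice, about the size of the pooled SD of 4.31, and the other differences from DIO-HFD were -3.70 and 0.434 points.

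Levels within the family differed by the position of a CpG in its fragment. In the Rassf10 fragment the cut CpG exceeded the mean of the 3 inner CpGs by 36.1 points ± 5.85 (SD, n = 14 mice), with a range of 25.3 to 44.9 points. In the distal Rassf5 fragment the excess was 37.5 points ± 4.57 (SD, n = 14 mice), with a range of 26.8 to 46.9 points. The cut CpG was the higher in 14 of 14 mice in both fragments, in every group. The size of the excess at Rassf10 was 37.9 points ± 2.82 (SD, n = 3) in CON-LFD, 40.3 ± 3.132 (SD, n = 4) in DIO-HFD, 37.5 ± 4.99 (SD, n = 3) in DIO-LFD and 29.4 ± 5.27 (SD, n = 4) in DIO-VSG mice. The DIO-VSG mice, at 25.3 to 36.9 points, lay below all DIO-HFD mice, at 37.96 to 44.9 points. Groups were thus separate in 1 of the 2 Rassf fragments in this comparison (all 5910 such fragments, 7.9%), and in 0 of 2 between CON-LFD and DIO-HFD (5.62%), DIO-LFD and DIO-HFD (5.92%) and DIO-VSG and DIO-LFD mice (7.73%). The comparison of the excess between groups was added after its values were seen and was not tested.

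**Figure D2:**
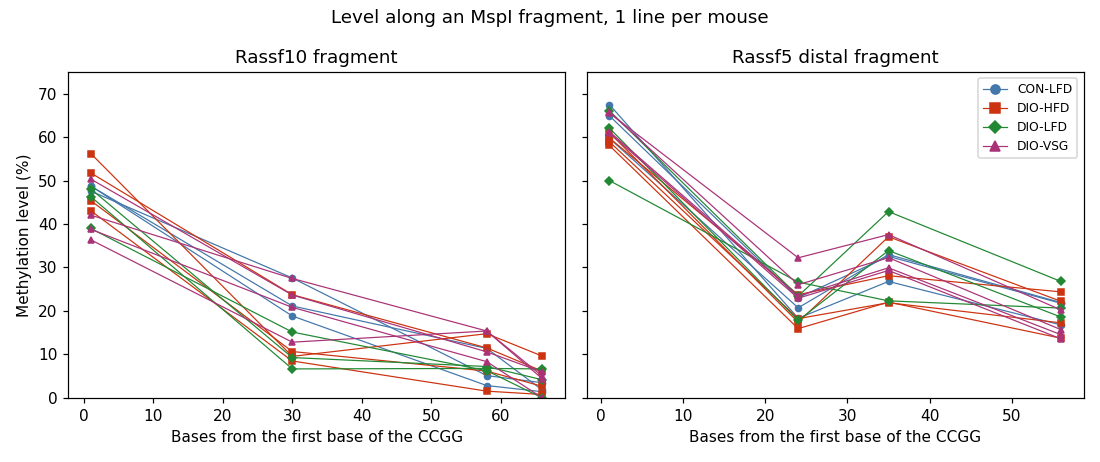
Methylation level in percent (y axis) against distance in bases from the first base of the CCGG (x axis) in the Rassf10 and the distal Rassf5 fragment, with 1 line per mouse, coloured by group. In both fragments every mouse has its highest level at the cut CpG on the left, at a mean of 45.9% and 61.5%, and in the Rassf10 fragment the drop from it to the mean of the inner CpGs is 25.3 to 36.9 points in DIO-VSG and 37.96 to 44.9 points in DIO-HFD mice.

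The same order was common in the table. Among all 5910 fragments with a cut CpG and an inner CpG listed, the cut CpG had the higher mean in 87.9%, with a median excess of 16.9 points. Among the 408 fragments whose cut CpG lay in a promoter CpG island, it was higher in 95.8%, with a median excess of 36.1 points. The Rassf10 fragment is one of these, but the distal Rassf5 fragment is not, since its cut CpG lies outside the island. An excess over 30 points was found in 27.5% of all fragments and in 62.7% of those in promoter CpG islands. In promoter CpG islands the median level over all cut CpGs was 49.8%, and over the 5 Rassf cut CpGs it was 45.9%. Other sites there had a median of 23.5% over all genes and 20.6% over the 4 Rassf sites. RRBS libraries are end-repaired, which fills in bases at the cut ends, and the sources used here do not give how those bases were trimmed, so their part in the levels of cut CpGs was not tested.

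In 2 of 4 fragments with both cut CpGs measured, the levels at opposite ends mirrored each other from mouse to mouse. At the proximal Rassf5 fragment, the level at +235 (chr1:131245024) was 41.6%, 52.8% and 54.4% in CON-LFD, 36.1%, 53.7%, 52.5% and 56% in DIO-HFD, 33.3%, 50.5% and 34.8% in DIO-LFD, and 44.4%, 46.9%, 40.9% and 39.9% in DIO-VSG mice. The level 95 bp away, at +140 (chr1:131245119), was 54.4%, 42.2% and 43.5%, then 63.4%, 46.5%, 50.8% and 46.6%, then 70.1%, 47.5% and 61.7%, and then 51.9%, 53.4%, 57.8% and 57.8% in the same mice. A mouse high at one end was low at the other, and the levels added up to 99.0% ± 2.72 (SD, n = 14), although each site alone varied with an SD of 7.87 and 8.09. Pearson's r was -0.942 and Spearman's rho was -0.947 (n = 14 mice, permutation p = 1e-05, the smallest that the resamples can give, adjusted p = 0.000185 over 37 pairs of sites of the same gene).

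Rassf7 showed the same between -447 (chr7:141215413) and -190 (chr7:141215670), which are 257 bp apart. Their levels added up to 98.7% ± 2.17 (SD, n = 14), with r = -0.932 and rho = -0.890 (n = 14 mice, permutation adjusted p = 0.000185). In DIO-HFD replicate 1 the levels were 34.8% and 66.7%, against 45.4% to 52.1% and 46.4% to 52.9% in the other DIO-HFD mice. Both relations held within groups, at r = -0.957 for Rassf5 and -0.929 for Rassf7, without the 2 mice farthest from the median, at -0.927 and -0.885, and without the 3 DIO-HFD mice of low mean level, at -0.968 and -0.897.

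Of the 37 pairs of sites within a gene, these 2 passed an adjusted p of 0.05. At the upstream Rassf5 fragment the levels at -665 and -787, 122 bp apart, added up to 101% ± 3.84 (SD, n = 14), with r = -0.426 (permutation adjusted p = 0.436). At the Rassf7 fragment from -190 to -146, 44 bp long, the sum was 85.8% ± 8.63 (SD, n = 14), with r = 0.00469 (permutation adjusted p = 0.988). Cut CpGs of different fragments, such as -447 and -146 of Rassf7, had r = -0.0664.

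**Figure D3:**
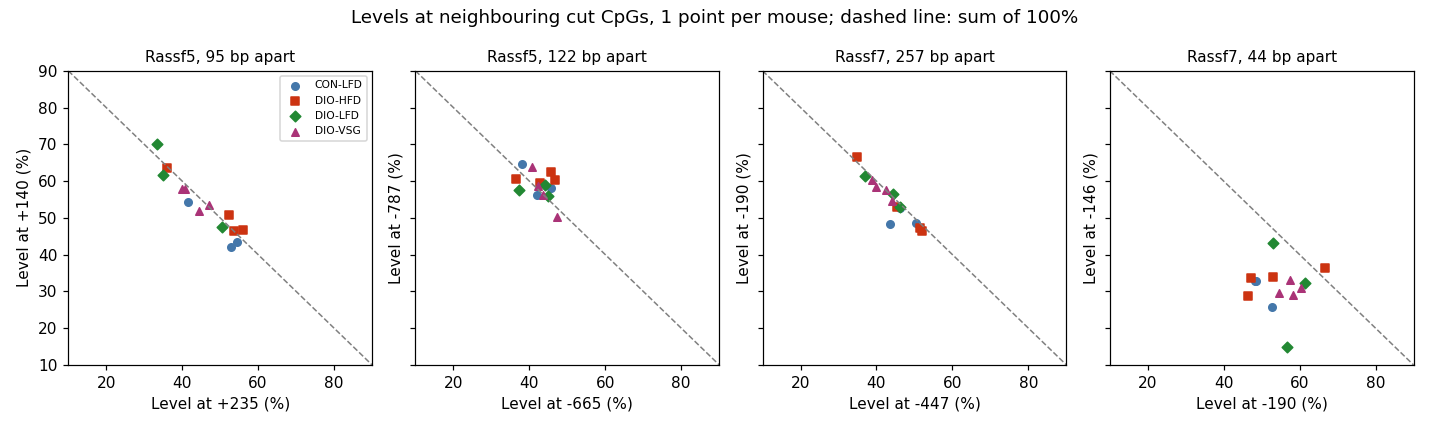
Level at a cut CpG (x axis, %) against the level at the cut CpG of the other end of its fragment (y axis, %) for the 4 such Rassf pairs, with 1 point per mouse and symbols by group. The dashed line marks a sum of 100%; the points of Rassf5 +235 and +140 and of Rassf7 -447 and -190 follow it, and those of Rassf7 -190 and -146 lie mostly below it.

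Such mirrored levels were common elsewhere. Over 1042 end pairs of promoter CpG island fragments of 40 to 170 bp, the length collected for sequencing, the median r was -0.879, with 88.6% below 0, and the median sum was 98.2%. In 77.8% of them the mean sum lay between 90% and 110%. In longer promoter CpG island fragments of up to 300 bp the median r was -0.902 over 262 pairs. The Rassf7 pair 257 bp apart is not among them, since its -447 site lies outside the island. Its fragment is also longer than the 170 bp collected. Both of its sites border a fragment of 44 bp as well, and which fragments gave their reads was not tested. Outside promoter CpG islands the median r was 0.0442 and the median sum 132% over 1765 pairs of 40 to 170 bp. These r values share the same 14 mice and are given as a description.

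**Figure D4:**
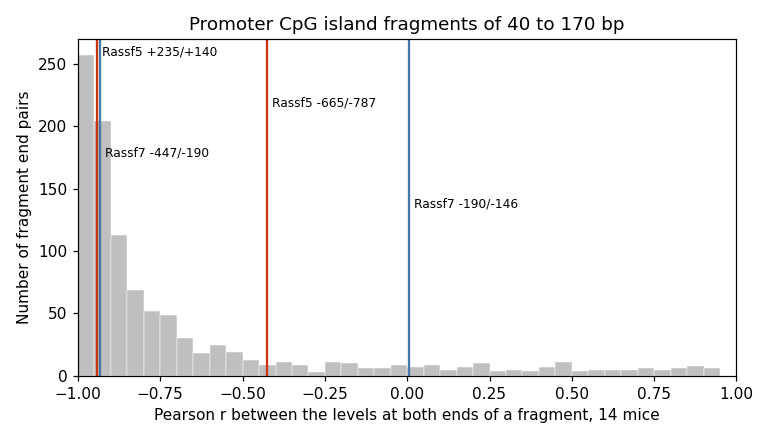
Number of fragment end pairs (y axis) by Pearson r between the levels at both ends over 14 mice (x axis), for 1042 pairs in promoter CpG islands in fragments of 40 to 170 bp. Vertical lines mark the 4 Rassf pairs for reference, of which the 257 bp pair of Rassf7 and the upstream pair of Rassf5 are not in the plotted set; Rassf5 +235/+140 (r = -0.942) and Rassf7 -447/-190 (r = -0.932) lie in the tall bars at the left.

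Of the 19 Rassf sites, 2 passed an adjusted p of 0.05 by Pearson's r against the mean level of a mouse over all tested sites, both inversely, and 6 passed by Spearman's rho, 2 inversely and 4 directly. Against that mean, r was -0.755 at Rassf5 +235 (rho -0.789) and -0.735 at Rassf7 -447 (rho -0.868), with a permutation adjusted p of 0.0279 for both r over the 19 Rassf sites, n = 14 mice. At their partners, Rassf5 +140 and Rassf7 -190, r was 0.588 and 0.646 (permutation adjusted p = 0.0861 and 0.0557) and rho was 0.745 and 0.785 (permutation adjusted p = 0.0164 and 0.00836). The other sites that passed by rho were Rassf5 +583 (rho 0.727, permutation adjusted p = 0.0183) and Rassf10 +1001 (rho 0.697, permutation adjusted p = 0.0240), where r was 0.637 and 0.677 (permutation adjusted p = 0.0557 for both). Within groups the values at the first 2 sites were -0.829 and -0.778, and without the 2 mice farthest from the median -0.721 and -0.728. Without the 3 DIO-HFD mice of low mean level, r was -0.631 and -0.612 there. It was then 0.607 and 0.465 at their partners, 0.333 at Rassf5 +583 and 0.508 at Rassf10 +1001. Over all 65610 tested sites the median r was 0.451. Of these, 4.97% had an r at or below that of Rassf5 +235, 5.3% that of Rassf7 -447 and 65.8% that of Rassf10 +1001. How many of them pass an adjusted p of 0.05 was not computed.

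The comparisons between groups asked how obesity and weight loss by either route relate to methylation at these genes. Levels were compared as M, the log2 ratio of the methylated to the unmethylated share, by limma over all 65610 sites with an SD of at least 0.05 over the mice. The 12 Rassf sites past that filter were tested and the other 7, 5 of Rassf5 and 2 of Rassf10, were not. None of the 12 had an adjusted p under 0.05 in any of the 4 comparisons.

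Between CON-LFD and DIO-HFD mice, 0 of 12 Rassf sites had an adjusted p under 0.05 by limma with Benjamini-Hochberg adjustment (all tested sites, 0%), and 0 of 12 had an unadjusted p under 0.05 (all tested sites, 7.76%). The groups were separate at 0 of 12 (all tested sites, 4.68%). Of the 12, 6 were higher and 6 lower in CON-LFD mice, and the median difference in M was -0.000616, against 0.29 over all tested sites. With each mouse centred on its median, 3 were higher and 9 lower.

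After weight loss by diet, in DIO-LFD relative to DIO-HFD mice, 0 of 12 had an adjusted p under 0.05 by limma (all tested sites, 0.00305%), 0 of 12 an unadjusted p under 0.05 (10.1%) and 0 of 12 separate groups (4.8%). The median difference was -0.14 over the 12 sites, with 5 higher and 7 lower, and 0.30 over all tested sites. Rassf2 and Rassf3 are the family members that the study labels in this comparison. The difference in M was 0.65 (SE 0.60, limma adjusted p = 0.647) at the Rassf2 site and -0.08 (SE 0.41, limma adjusted p = 0.942) at the Rassf3 site. Without DIO-HFD replicate 1 they were 0.58 (SE 0.66, limma adjusted p = 0.578) and 0.0129 (SE 0.43, limma adjusted p = 0.988). The Rassf2 level was 41.4% ± 9.27 (SD, n = 3) in DIO-LFD and 30.7% ± 3.06 (SD, n = 4) in DIO-HFD mice, and the groups overlapped.

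Between DIO-VSG and DIO-HFD mice, 0 of 12 had an adjusted p under 0.05 (all tested sites, 0.00305%), 0 of 12 an unadjusted p under 0.05 (25%) and 0 of 12 separate groups (7.58%). The median difference in M over the 12 sites was -0.18, with 5 higher and 7 lower after surgery, while over all tested sites it was 0.48. With each mouse centred on its median, 2 were higher and 10 lower. The Rassf3 site had a difference of -0.73 (SE 0.38, limma adjusted p = 0.237), which was -0.34 without DIO-VSG replicate 2, the mouse with the lowest level there, and -0.64 without DIO-HFD replicate 1.

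Between DIO-VSG and DIO-LFD mice, 0 of 12 had an adjusted p under 0.05 (all tested sites, 0.00305%), 1 of 12 an unadjusted p under 0.05 (3.98%) and 0 of 12 separate groups (7.74%). That site was Rassf10 +1001 (chr7:112954961), with a difference in M of 1.17 (SE 0.46, limma adjusted p = 0.945). Of the 7 sites that were not tested, 2 had separate groups in one comparison each. For DIO-LFD relative to DIO-HFD it was 1 of 7 (all tested sites, 4.8%). For DIO-VSG relative to DIO-LFD it was 1 of 7 (all tested sites, 7.74%). It was 0 of 7 in CON-LFD (4.68%) and 0 of 7 in DIO-VSG mice (7.58%), each against DIO-HFD. The share over all untested sites was not computed, so the levels that follow are a description only. At Rassf5 -787 the DIO-LFD levels of 57.4%, 55.9% and 59.0% lay below the DIO-HFD levels of 60.4%, 59.5%, 62.5% and 60.6%. At Rassf10 +1029 the DIO-VSG levels of 15.4%, 15.4%, 8.33% and 10.6% lay above the DIO-LFD levels of 6.25%, 7.22% and 6.78%.

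**Figure D5:**
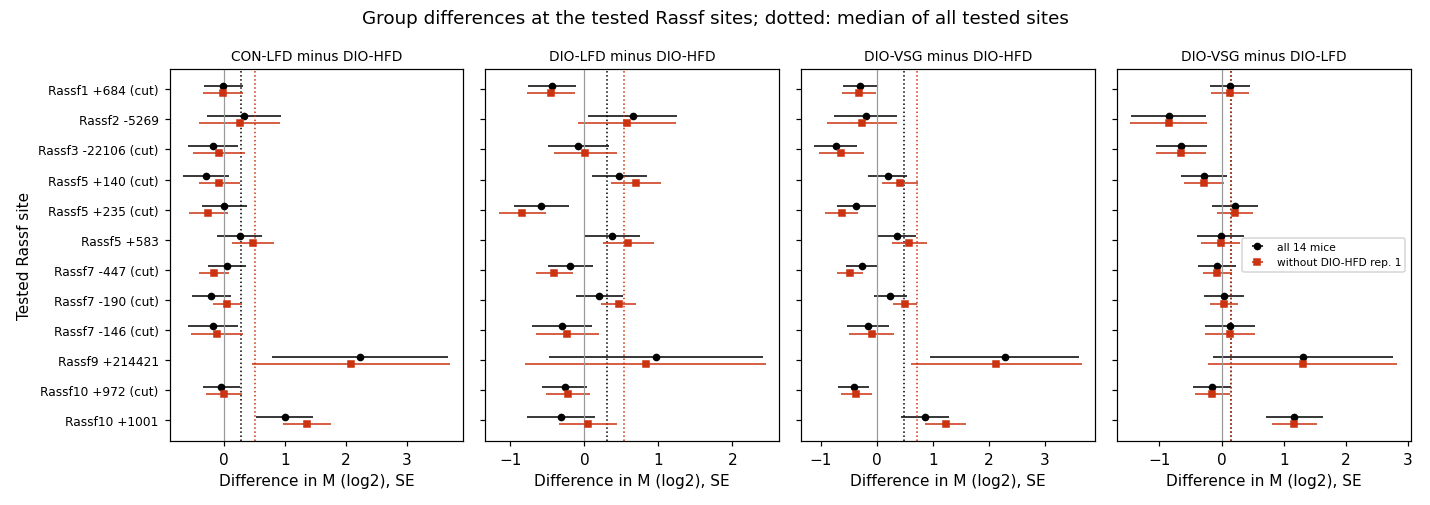
Difference in M (log2, x axis) with its standard error at the 12 tested Rassf sites (y axis) in the 4 comparisons, with all 14 mice (black circles) and without DIO-HFD replicate 1 (red squares). Dotted lines give the median over all tested sites in the same colours; Rassf10 +1001 shifts from 1.00 to 1.36 in CON-LFD and from 0.86 to 1.23 in DIO-VSG relative to DIO-HFD mice when that mouse is left out.

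Rassf10 +1001 had the smallest p of the 12 sites in 3 of the 4 comparisons, and its call depended on 1 mouse. Its levels were 27.6%, 21.1% and 18.8% in CON-LFD, 23.7%, 8.49%, 9.55% and 10.7% in DIO-HFD, 15.2%, 9.28% and 6.67% in DIO-LFD, and 27.5%, 12.8%, 20.8% and 23.7% in DIO-VSG mice. The value of 23.7% in obese mice was that of DIO-HFD replicate 1, and the other 3 obese mice lay below every CON-LFD and every DIO-VSG mouse. Those 3 mice also had the lowest mean levels over all tested sites. The share of all tested sites with separate groups once DIO-HFD replicate 1 is left out was not computed. With all mice, the difference in M from DIO-HFD was 1.00 (SE 0.46, limma adjusted p = 0.611) in CON-LFD and 0.86 (SE 0.43, limma adjusted p = 0.224) in DIO-VSG mice. Without DIO-HFD replicate 1, it was 1.36 (SE 0.39, limma adjusted p = 0.0449) and 1.23 (SE 0.37, limma adjusted p = 0.0241). In DIO-LFD mice it was 0.05 (SE 0.39, limma adjusted p = 0.942) without that mouse.

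Without that mouse, 1 of 12 Rassf sites had an adjusted p under 0.05 in CON-LFD (all tested sites, 12%), 0 of 12 in DIO-LFD (14.6%) and 1 of 12 in DIO-VSG mice (34.4%). At an unadjusted p under 0.05 these counts were 1 (30.9%), 1 (32.6%) and 2 of 12 (44.9%). At Rassf5 +235 the DIO-LFD difference without it was -0.84 (SE 0.32, limma adjusted p = 0.0920), against -0.58 (SE 0.37, limma adjusted p = 0.532) with all mice.

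The remaining named sites did not pass in any comparison. At Rassf1 +684 the DIO-LFD difference from DIO-HFD was -0.44 (SE 0.33, limma adjusted p = 0.575). At Rassf7 -447 the DIO-VSG difference was -0.26 (SE 0.29, limma adjusted p = 0.571), and at Rassf9 it was 2.28 (SE 1.34, limma adjusted p = 0.287). Without DIO-HFD replicate 1 these differences were -0.45, -0.48 and 2.13, with limma adjusted p of 0.365, 0.132 and 0.305.

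The partners of the family in Ras and Hippo signaling were taken as a list of 43 genes, of which 23 had a site and 128 sites were tested. With all mice, none of the 128 had an adjusted p under 0.05 in the 4 comparisons by limma. Without DIO-HFD replicate 1, 15 sites did in CON-LFD (11.7%, all tested sites 12%), 29 in DIO-LFD (22.7%, all tested sites 14.6%) and 59 in DIO-VSG mice (46.1%, all tested sites 34.4%), and of these 15, 29 and 58 were higher than in DIO-HFD mice. With all mice and at an unadjusted p under 0.05, 2 sites were higher and 1 lower in CON-LFD (2.34%, all tested sites 7.76%), 13 higher and 1 lower in DIO-LFD (10.9%, all tested sites 10.1%) and 35 higher and 5 lower in DIO-VSG mice (31.2%, all tested sites 25%), each relative to DIO-HFD. Most calls over all tested sites were higher too: 3939 of 5094 in CON-LFD, 5195 of 6614 in DIO-LFD and 13250 of 16433 in DIO-VSG mice. Without DIO-HFD replicate 1 it was 24597 of 29443 in DIO-VSG mice, again at an unadjusted p under 0.05. Directions of adjusted calls over all sites were not counted. Between DIO-VSG and DIO-LFD mice, 3 pathway sites were higher and 1 lower (3.12%, all tested sites 3.98%). In the surgery comparison the higher sites included 8 of Hras, a Ras GTPase, 8 of Tead3, a transcription factor of the Hippo pathway, 4 of Vgll4 and 4 of Amotl2, and the lower sites included 2 of Vgll3 and 1 of Tead3.

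Lists of cell type marker genes were covered in part. A site was present for 4 of 10 adipocyte genes, 3 of 12 lymphocyte genes, 8 of 10 epithelial genes, 1 of 6 macrophage genes and 3 of 5 endothelial genes, and with all mice 0 of their sites had an adjusted p under 0.05 in any comparison by limma. At an unadjusted p under 0.05 in DIO-VSG against DIO-HFD mice, 8 adipocyte sites were higher and 1 lower of 26, 2 of 8 lymphocyte sites were lower, 3 of 28 epithelial sites were higher and 3 lower, 2 of 6 endothelial sites were higher, and the 1 macrophage site had a difference of 1.80. These are 34.6% of the adipocyte, 25% of the lymphocyte, 21.4% of the epithelial and 33.3% of the endothelial sites, beside 25% of all tested sites. Without DIO-HFD replicate 1, an adjusted p under 0.05 in this comparison was reached by 14 adipocyte (53.8%), 3 lymphocyte (37.5%), 11 epithelial (39.3%), 2 endothelial (33.3%) and 1 macrophage sites. The share over all tested sites was 34.4%. Of these calls, 12 adipocyte, 2 lymphocyte, 7 epithelial, 2 endothelial and 1 macrophage sites were higher after surgery, and the others were lower. Over all tested sites without that mouse, 24597 of the 29443 with an unadjusted p under 0.05 were higher after surgery. The mean over adipocyte sites was 67.2% ± 5.53 (SD, n = 4) in DIO-HFD and 75.5% ± 0.965 (SD, n = 4) in DIO-VSG mice, while the 3 DIO-HFD mice other than replicate 1 had 64.5% ± 1.61 (SD, n = 3). The mean over endothelial sites ran from 44.7% to 59.98% in DIO-HFD and from 60.4% to 63.7% in DIO-VSG mice. Over lymphocyte sites it was lower after surgery, at 55.7% to 56.5% against 59.4% to 59.97%, and over epithelial sites it ran from 64.2% to 67.9% against 58.8% to 68.9%. Levels of methylation at marker genes do not show whether a cell type was present, and the part of the cell mix in any Rassf difference was not tested.

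The sites elsewhere whose M followed the Rassf2 site most closely over 14 mice were those of Elf1 at -341 (r = 0.901), Cadm1 at 1458 (r = 0.901) and Arhgap21 at 292 bp (r = 0.893). For the Rassf3 site they were Hmga2 at 1165 (r = 0.933), Syce2 at 873 (r = 0.920) and 2610001A08Rik at -1238 bp (r = 0.910). These are the highest of all tested sites and are given as a description. DIO-VSG replicate 2 had the lowest level at the Rassf2 site (8.33%) and at the Rassf3 site (28.6%). How far these r values rest on that mouse was not tested.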

How the data were processed

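RRBS levels of 14 mice were analysed, and the sample labels gave the 4 groups. The authors digested DNA with MspI, collected fragments of 40 to 170 bp, aligned reads to mm10 with Bismark, called methylation with methylKit and left out a mouse of CON-LFD and a mouse of DIO-LFD whose sequencing was poor. The authors deposited, per mouse and site, the fraction of reads that were methylated, without normalization. Levels are printed as percent. The table holds no read counts, so depth and precision per site are unknown. The methods name a removal of sites with an SD under 0.05, but 10151 of the 75761 sites lie under it.

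The fraction b was turned into M, as log2((b + 0.01)/(1 - b + 0.01)), and the 65610 sites with an SD of at least 0.05 were fitted with the 4 groups in 1 model by limma 3.58.1 in R 4.3.3, with Benjamini-Hochberg adjustment over all of them. Replicates are separate mice. On data simulated for DIO-VSG against DIO-HFD over the 65610 sites, 48 of 200 sites changed by 2 in M and 170 of 200 changed by 4 were recovered, with 6 and 13 false calls. The simulated noise was independent between sites and had no shift shared by the sites of a mouse, so recovery in the real data may differ. Correlations over mice were tested with 100000 permutations in SciPy 1.17.1 (Python 3.11.15), two-sided and adjusted over the pairs or sites. CCGG sites were read from GRCm38.p6, and gene parts from GENCODE M21. Matplotlib 3.10.9 drew the figures.

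The sites named were, per gene, the tested site with the smallest p over the 3 comparisons with DIO-HFD, and for Rassf2 and Rassf3, labelled in the study, the site with the smallest p in DIO-LFD against DIO-HFD. Others were named after their values were seen. The members, the 43-gene pathway list and the marker lists were chosen with earlier results of these data known. Same-numbered mice shared deviations only weakly, with r from -0.0804 to 0.202, though 8 of 14 correlated best with a mouse of their own number. The main fit used no replicate block, and a fit with it is among the alternatives. Alternatives were the offset, levels in place of M, the SD filter, the groups in the fit, eBayes with trend and robust, centring, the block, leaving out each mouse, and, chosen after seeing the data, only sites that are not cut CpGs.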

Additional observations from a re-analysis of the deposited data

Results flagged for a closer look

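In groups of 4 mice, a mouse was singled out when the share of the group's range taken by its gap to the nearest other mouse passed Dixon's critical value. Over 40 groups, 19 sites in each of 2 groups and the mean level in each, 3 mice were found, and chance gives about 1 in 20 groups, or 2 here. DIO-HFD replicate 1 had a mean level of 66.2% over the tested sites, and the other DIO-HFD mice lay between 57.2% and 57.6%. The same mouse had a level of 23.7% at Rassf10 +1001, against 8.49% to 10.7% in the other 3. DIO-VSG replicate 4 had a level of 60.0% at the Rassf9 site, against 100% in the other 3 DIO-VSG mice, and without it the difference in M from DIO-HFD was 3.8 in place of 2.28, with an adjusted p of 0.252 by limma. At 100%, M is set by the offset, and with all mice and the offset of 0.1 the difference was 0.56. The cause of these values was not tested.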

How the results depend on the processing

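With an adjusted p under 0.05 by limma, the count of Rassf sites stayed at 0 under every alternative except leaving out DIO-HFD replicate 1, where it was 1 in CON-LFD and 1 in DIO-VSG against DIO-HFD mice. The added fit of only sites that are not cut CpGs moved no count. With each mouse left out in turn it ran from 0 to 1 in those comparisons and was 0 in both others. Counts at an unadjusted p under 0.05 ran from 0 to 1 in CON-LFD, 0 to 2 in DIO-LFD and 0 to 2 in DIO-VSG against DIO-HFD mice, and 0 to 1 in DIO-VSG against DIO-LFD mice, when a mouse was left out. Mice whose removal moved these counts were DIO-HFD replicate 1, CON-LFD replicate 3, DIO-LFD replicates 1, 2 and 3, and DIO-VSG replicates 1, 2, 3 and 4. The count rose from 0 to 1 with no filter on the SD, and with the replicate block, in CON-LFD and in DIO-VSG mice. It rose to 1 with levels in place of M in DIO-VSG mice, and with centring to 1 in DIO-LFD and 3 in DIO-VSG mice (Rassf1, Rassf3 and Rassf10 +972). It fell from 1 to 0 with an SD of at least 0.1 in DIO-VSG against DIO-LFD mice, where 2 sites were left. The replicate number paired the mice weakly at most: 4 of 19 same-numbered pairs had a correlation of deviations over 0.1, with a range of -0.0804 to 0.202. Still, 8 of 14 mice correlated best with a mouse of their own number, and what this reflects was not tested. Over Rassf10 sites within 1000 bp of the start, a single site, the differences were -0.751 points in CON-LFD, -7.22 in DIO-VSG against DIO-HFD, and -2.57 in DIO-VSG against DIO-LFD mice, so their direction turned. Over all sites within 1000 bp the direction also turned, by less than the pooled SD, at Rassf7, to -0.915 in DIO-LFD, -0.962 in DIO-VSG against DIO-HFD and -0.0471 in DIO-VSG against DIO-LFD mice, and at Rassf5 to 0.0803 in DIO-VSG against DIO-LFD mice.

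The sign of the difference in M turned at sites that passed in no fit with all mice. With centring it was -0.28 at Rassf5 +235 and -0.23 at Rassf7 -447 in CON-LFD against DIO-HFD, and -0.059 at Rassf1 in DIO-VSG against DIO-LFD mice. With the block it was 0.0715 at Rassf1 in CON-LFD mice. At Rassf9 in DIO-VSG against DIO-LFD mice it was -0.0042 with the offset of 0.1 and -0.041 on levels, and at Rassf2 in DIO-VSG against DIO-HFD mice 0.0018 on levels. With mice left out, ranges that crossed 0 were -0.12 to 0.18 (CON-LFD) and -0.0163 to 0.32 (DIO-VSG against DIO-LFD) at Rassf1, -0.64 to 0.0547 (DIO-LFD) at Rassf10 +1001, -0.60 to 0.45 (DIO-VSG) at Rassf2, -0.22 to 0.0832 (DIO-LFD) at Rassf3, -0.25 to 0.23 (CON-LFD) at Rassf5 +235, and -0.16 to 0.17 (CON-LFD) and -0.23 to 0.0347 (DIO-VSG against DIO-LFD) at Rassf7 -447. For the mean over promoter island sites, these ranges were -0.794 to 1.31, 0.0763 to 3.12, 0.158 to 2.00 and -1.96 to 1.08 points at Rassf5, -4.98 to -0.345, -1.99 to 4.23, -1.0 to 3.64 and -3.35 to 2.86 at Rassf7, and 2.55 to 6.54, -5.48 to -1.49, -1.39 to 2.75 and 2.31 to 6.45 at Rassf10. The cause was not tested. Without read counts, what depth limits at a site is unknown.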
